A study of Mus musculus with 6 samples.

Results

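The genes described here are 9 genes of the eosinophil, chosen by name among the 39179 genes counted in mouse bone marrow. They encode the granule proteins major basic protein (*Prg2*), its homolog (*Prg3*) and eosinophil peroxidase (*Epx*), the eosinophil-associated ribonucleases *Ear1*, *Ear2* and *Ear6*, and the surface receptors Siglec-F (*Siglecf*), the interleukin-5 receptor alpha chain (*Il5ra*) and the eotaxin receptor CCR3 (*Ccr3*). All 9 passed the filter on low counts and belong to the 15980 genes tested. Bone marrow RNA came from 3 *MxCDX2* mice, which carried *RsCDX2*, a human *CDX2* sequence at *Rosa26* kept silent by a stop sequence until Cre acts, together with *Mx1Cre*, a Cre recombinase under an interferon-inducible promoter. The 3 littermate controls had 3 different genotypes, *RsCDX2* alone (control 1), *Mx1Cre* alone (control 2) and wild type (control 3). All 6 mice were treated at 3 months of age with 3 intraperitoneal injections of poly(I:C), an inducer of interferon, at 10 µg per g of body weight, and RNA was made from whole bone marrow 6 weeks later. *Mx1Cre* acts in hematopoietic cells and also in other interferon-responsive cells, so recombination is not limited to 1 lineage. Control mice had thus received poly(I:C) as well.

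Eosinophils are granulocytes that mature in the bone marrow under interleukin-5 and leave it for the blood and mucosal tissues, where eotaxins attract them through CCR3. Their progenitors fill crystalloid granules with very abundant basic proteins, a peroxidase and ribonucleases, so the mRNAs of these proteins mark maturing eosinophils in the marrow. Lineage choice depends on GATA and C/EBP transcription factors. Siglec-F is an inhibitory sialic acid receptor of mouse eosinophils that is also known from other myeloid cells such as alveolar macrophages, and CCR3 is also found on basophils and mast cells.

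The promoters of 8 of the 9 genes were matched by symbol in a RefSeq table (GRCm38.p6), and that of *Prg2* was not. The 5 printed here are those of the 3 ribonuclease genes and of *Siglecf* and *Ccr3*, which differed from the other 7 genes in the counts. Among the ribonucleases, *Ear1* and *Ear2* are so alike in sequence that reads can be shared between them. Each printed promoter is read 5′ to 3′ on the strand of its gene and ends at the base before the RefSeq start, except that of *Ear6*, which ends 69 bases earlier, at the base before the gene in GENCODE M21. The printed stretch of *Ear1* lies before its RefSeq start but inside the longer GENCODE M21 gene, which spans chr14:43818765-43875517. The capitals mark matches on either strand to 3 sets of letters, named here after the factor families. The GATA set holds the letters AGATAA as well as the letters AGATAG, and further the letters TGATAA as well as the letters TGATAG. The C/EBP set is the word TTGCNNAA. The CDX set holds the letters TTTATA as well as the letters TTTATG. The coordinates are chr14:43819640-43819889 on the minus strand for *Ear1*, chr14:44102404-44102653 on the plus strand for *Ear2*, chr14:51853518-51853698 on the plus strand for *Ear6*, chr7:43351091-43351340 on the plus strand for *Siglecf* and chr9:124021721-124021970 on the plus strand for *Ccr3*.
Ear1: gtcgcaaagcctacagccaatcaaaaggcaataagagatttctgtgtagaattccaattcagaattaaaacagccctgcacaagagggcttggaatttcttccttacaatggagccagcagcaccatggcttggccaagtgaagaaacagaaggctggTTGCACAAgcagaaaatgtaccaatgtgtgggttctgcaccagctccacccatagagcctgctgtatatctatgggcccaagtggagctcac
Ear2: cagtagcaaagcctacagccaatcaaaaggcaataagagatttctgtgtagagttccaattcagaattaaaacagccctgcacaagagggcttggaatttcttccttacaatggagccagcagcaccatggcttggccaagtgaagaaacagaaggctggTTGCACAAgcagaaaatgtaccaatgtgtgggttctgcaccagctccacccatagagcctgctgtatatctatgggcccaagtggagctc
Ear6: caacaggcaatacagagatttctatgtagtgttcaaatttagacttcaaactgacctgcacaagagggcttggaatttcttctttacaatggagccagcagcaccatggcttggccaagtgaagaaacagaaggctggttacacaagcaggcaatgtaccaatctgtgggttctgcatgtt
Siglecf: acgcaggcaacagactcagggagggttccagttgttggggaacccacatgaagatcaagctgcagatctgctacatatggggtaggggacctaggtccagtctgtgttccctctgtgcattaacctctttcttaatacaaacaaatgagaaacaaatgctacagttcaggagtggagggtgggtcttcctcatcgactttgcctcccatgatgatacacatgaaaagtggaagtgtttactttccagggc
Ccr3: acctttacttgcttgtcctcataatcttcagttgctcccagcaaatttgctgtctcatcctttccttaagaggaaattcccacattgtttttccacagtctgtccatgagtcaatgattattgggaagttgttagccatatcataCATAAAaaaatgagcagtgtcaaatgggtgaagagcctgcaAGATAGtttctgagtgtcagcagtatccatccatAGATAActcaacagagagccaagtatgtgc

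The windows searched were 250 bases long, with the 69 unprinted bases of *Ear6* included. The *Ear1* and *Ear2* windows were 99.2% identical over 248 aligned bases, and that of *Ear6* was 92.6% identical to *Ear1* and 93% to *Ear2*. The word TTGCACAA was present in *Ear1* and *Ear2*, starting 92 and 90 bases before the start, and the aligned bases of *Ear6* differed from it by G3A, counted from the 5′ end of the word. The C/EBP letters were found in these 2 of the 8 windows and in 9.56% of 32851 RefSeq promoters of the same length. The GATA letters were found in *Prg3*, *Il5ra* and, at 2 places, *Ccr3*, against 26.5% of all promoters, and the CDX letters in *Epx* and *Ccr3*, against 20.9%. The match in *Epx*, whose window is not printed, read TATAAA on the strand of the gene and began 24 bases before the start. None of the sets had a match in *Ear6* or *Siglecf*. No match overlapped another, and a match describes letters and not a bound site.

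Between 38646101 and 49899650 reads per mouse were counted on genes. *Cdx2* had 4, 0 and 0 reads in control mice 1 to 3 and 152, 155 and 183 in *MxCDX2* mice 1 to 3, which fits the labels, although the files list mouse genes only and human *CDX2* reads could be counted there in part, and the 9 eosinophil genes were read in every mouse. The wild-type mouse stood apart from the other controls. Its summed normalized count of 5 megakaryocyte markers was 145858, against 14567 and 16315 in the other controls and 7446 to 9511 in *MxCDX2* mice, and that of 5 neutrophil primary granule markers was 32115, against 137503 to 182549 in the other 5 mice. *MxCDX2* mouse 2 had the highest share of reads outside annotated genes, 14.1%, against 9.22% to 11.3% in the other mice.

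Normalized counts are counts scaled to the mean library size after TMM adjustment, in control 1, 2 and 3 and then in *MxCDX2* 1, 2 and 3. *Prg2*, which encodes the major basic protein that forms the crystal core of the granule, had 126129, 84175 and 22969 in control mice and 92627, 6609 and 27637 in *MxCDX2* mice. Controls 1 and 2 and *MxCDX2* mouse 1 were high, control 3 and *MxCDX2* mouse 3 were several-fold lower and *MxCDX2* mouse 2 was lowest, so the groups overlapped. The controls averaged 77758 ± 51879 (SD, n = 3) and the *MxCDX2* mice 42291 ± 44843 (SD, n = 3). This is a log2 fold change of -0.88 with a standard error (SE) of 0.96 and a 95% interval of -3.16 to 1.41, and it did not pass (adjusted p = 0.561, edgeR's quasi-likelihood fit). The highest mouse exceeded the lowest 19.1-fold.
*Prg3*, which lies 4582 bases beyond *Prg2* on chromosome 2 (GRCm38), had 4867, 3456 and 1076 normalized counts in control mice and 3722, 321 and 1126 in *MxCDX2* mice. This gave a log2 fold change of -0.86 (SE 0.88, adjusted p = 0.535 from edgeR). *Epx*, which encodes the peroxidase of the granule matrix and lies on chromosome 11, had 26930, 21635 and 5465 in control mice and 21360, 1931 and 6675 in *MxCDX2* mice. The same 3 mice were high as for *Prg2*, and the groups overlapped for both genes. The log2 fold change of *Epx* was -0.85 (SE 0.89, adjusted p = 0.546 from edgeR). The 95% interval of *Epx* ran from -2.98 to 1.28, so a difference in either direction was not detectable against this spread.

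**Figure D1:**
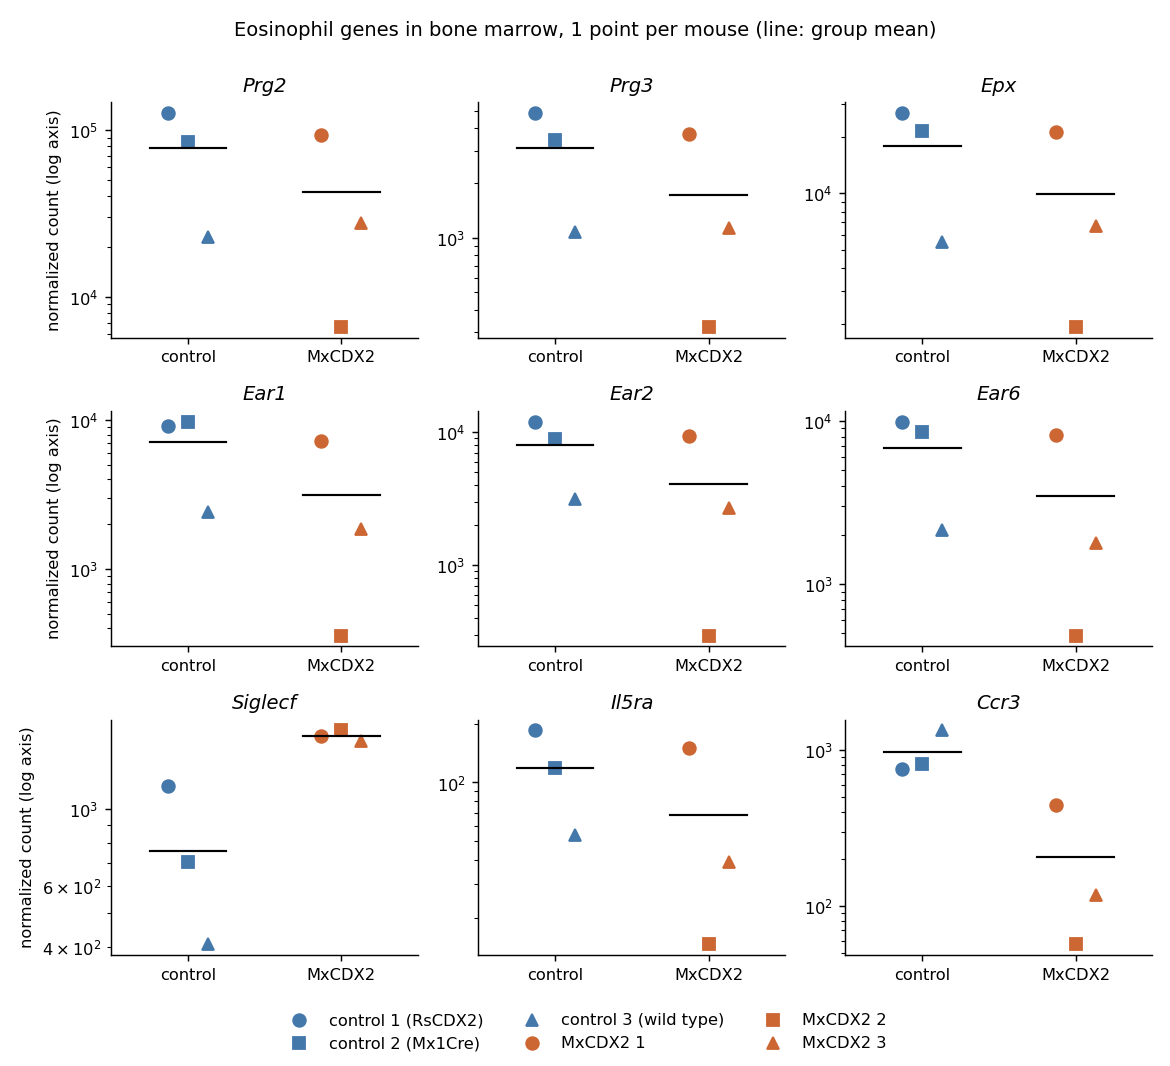
Normalized count (log axis) of each of the 9 eosinophil genes in the 3 control mice (blue) and the 3 *MxCDX2* mice (orange), with 1 symbol per mouse and a line at the mean of each group. In 7 genes controls 1 and 2 and *MxCDX2* mouse 1 are the highest 3 mice and *MxCDX2* mouse 2 the lowest, whereas *Siglecf* is higher and *Ccr3* lower in all 3 *MxCDX2* mice than in any control.

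The ribonuclease genes are rodent relatives of the human eosinophil cationic protein and eosinophil-derived neurotoxin, and all 3 lie on chromosome 14. *Ear1* had 9068, 9742 and 2432 normalized counts in control mice and 7227, 359 and 1857 in *MxCDX2* mice, with a log2 fold change of -1.17 (SE 1.00, adjusted p = 0.452 from edgeR). *Ear2* had 12008, 8975 and 3155 in control mice and 9326, 296 and 2681 in *MxCDX2* mice, and its 40.6-fold range was the widest of the 9 genes. *Ear6* had 9857, 8507 and 2142 in control mice and 8161, 485 and 1789 in *MxCDX2* mice. The groups overlapped for all 3 genes, and the mice fell into the same high and low sets as for the granule proteins. The log2 fold changes of *Ear2* and *Ear6* were -0.97 (SE 1.05, adjusted p = 0.558 from edgeR) and -0.97 (SE 1.00, adjusted p = 0.533).

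Reads of *Ear1* and *Ear2* are uncertain in their assignment, and those of *Ear6* much less so. The longest *Ear1* and *Ear2* transcripts were 96.8% identical and those of *Ear1* and *Ear6* 85.4%. Of all 50-base words in their transcripts, 42.6% of *Ear1*, 58.5% of *Ear2* and 99.0% of *Ear6* occurred in no other gene, against 99.0% or more for the other 6 genes. Among 100-base words the shares were 76.1%, 86.1% and 100%. *Ear1* overlaps the pseudogene *Ear-ps9* by 17 exonic bases on the same strand. The files hold 0 reads counted as aligned to several places in each mouse. When the counts of *Ear1*, *Ear2*, *Ear6*, *Ear10* and *Ear14* were summed into 1 gene, the sum was 31985, 27225 and 7731 in control mice and 25558, 1139 and 6540 in *MxCDX2* mice, with a log2 fold change of -1.01 (SE 1.02, adjusted p = 0.529 from edgeR). The groups thus overlapped in this sum as well. The sum holds neither the Ear pseudogenes nor reads aligned to several places, so it cannot settle how far read assignment mattered.

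Among the receptors, *Il5ra*, which gives the interleukin-5 receptor its specificity, had low counts. They were 185, 119 and 53.8 in control mice and 150.4, 14.7 and 39.2 in *MxCDX2* mice, again high in controls 1 and 2 and *MxCDX2* mouse 1. The log2 fold change was -0.81 (SE 0.85, adjusted p = 0.545 from edgeR).

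*Ccr3* had lower counts in all 3 *MxCDX2* mice than in any control, without passing the test in edgeR. Its normalized counts were 756.5, 810.3 and 1339 in control mice and 446, 56.8 and 118 in *MxCDX2* mice. The groups did not overlap, and *MxCDX2* mouse 1 was the nearest to the controls. The *MxCDX2* mice averaged 207 ± 209 (SD, n = 3), 4.68-fold lower than the 969 ± 322 (SD, n = 3) of the controls. The log2 fold change of -2.23 (SE 0.74, 95% interval -3.98 to -0.48) had an unadjusted p of 0.0199 and an adjusted p of 0.0744 in edgeR and did not pass, whereas it passed in DESeq2 (adjusted p = 0.00463). Without *MxCDX2* mouse 1 it was -3.47 (adjusted p = 0.00823 from edgeR), and without the wild-type mouse -1.92 (adjusted p = 0.134).
*Ccr3* was highest in the wild-type mouse, where the 7 genes other than *Ccr3* and *Siglecf* were low. Some mast cell genes were also highest in that mouse. *Cma1*, a mast cell chymase, had 170 normalized counts there and 2.94 to 14.1 in the other mice, and the proteases *Mcpt4* and *Tpsb2*, named here after their values were seen, had 219 and 136 reads there and at most 3 in each other mouse. The summed count of 11 basophil and mast cell markers was 62996, 38562 and 26526 in control mice and 16040, 10196 and 7023 in *MxCDX2* mice. Among the controls this sum was lowest in the wild-type mouse. Much of it came from *Hdc*, the histamine-forming enzyme, with 46499, 19355 and 7870 in control mice. Of the controls, the wild-type mouse was highest for *Cpa3*, *Fcer1a* and *Kit*, and control 2 for *Mcpt8*, *Prss34* and *Ms4a2*. Some of these genes were named after their values were seen. Of the 8 tested genes of this list, 4 passed the thresholds, all of them lower in *MxCDX2* mice, and the number lower was 2 without control 1 or without *MxCDX2* mouse 2. *Tpsab1*, also named after its values were seen, had 0 reads in every mouse. The part of these cells in the *Ccr3* difference was not tested.

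*Siglecf* had higher counts in all 3 *MxCDX2* mice than in any control, also without passing in edgeR. It had 1168, 704 and 408 normalized counts in control mice and 1630, 1688 and 1569.5 in *MxCDX2* mice. All 3 *MxCDX2* mice were above every control and close to each other, and the controls differed among themselves. The *MxCDX2* mice averaged 1629 ± 59.2 (SD, n = 3), 2.14-fold higher than the 759.8 ± 383 (SD, n = 3) of the controls. The log2 fold change of 1.10 (SE 0.35, 95% interval 0.26 to 1.94) had an unadjusted p of 0.0177 and an adjusted p of 0.0688 in edgeR and did not pass, whereas it passed in DESeq2 (adjusted p = 0.0189). Without control 1 it was 1.57 (adjusted p = 0.0199 from edgeR) and without the wild-type mouse 0.82 (adjusted p = 0.045), below the threshold on the fold change.
Some monocyte markers, and the sum of the monocyte and macrophage markers, were higher in the same mice as *Siglecf*. The summed normalized count of 10 such genes was 70919 to 74932 in control mice and 268766 to 321830 in *MxCDX2* mice, and 4 were higher and 2 lower past the thresholds. The 4 higher were *Csf1r*, *Ly6c2*, *Ccr2* and *F13a1*, and the 2 lower were the macrophage genes *Marco*, with 14, 12 and 60 reads in control mice and 1, 0 and 5 in *MxCDX2* mice, and *Vcam1*, with a log2 fold change of -2.04, neither of which passed without *MxCDX2* mouse 1 or without *MxCDX2* mouse 2. The other 4 did not pass, with log2 fold changes of 0.82 for *Cd68*, 0.10 for *Cx3cr1*, 0.01 for *Mrc1* and -0.53 for *Nr4a1*. Most of the sum came from *F13a1*, *Ly6c2* and *Ccr2*, with 120068, 74466 and 70375 of the 321830 in *MxCDX2* mouse 2. Some of these names were chosen after their values were seen. The part of these cells in the *Siglecf* difference was not tested. In whole marrow, fewer cells of a type and less RNA per cell cannot be told apart, for *Siglecf* as for the other 8 genes.

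A gene was called differentially expressed where its log2 fold change exceeded 1 in size and its adjusted p lay below 0.05. With edgeR, 0 of the 9 genes passed, against 13.6% of all tested genes (4.59% higher and 9.03% lower in *MxCDX2* mice). With DESeq2, 2 of the 9 passed, *Siglecf* and *Ccr3*, against 15.7% of all genes with an adjusted p there. The groups of mice did not overlap in 2 of the 9 genes, against 42.1% of all tested genes. The median log2 fold change of the 9 genes was -0.88 and that of all tested genes 0.0021. Of the 9, 8 lay below 0, against 49.9% of all tested genes. Members other than *Siglecf* and *Ccr3* varied together over the mice, so their signs are not independent. In an exact two-sided permutation test, *Siglecf* and *Ccr3* had p = 0.10, the smallest that 3 mice against 3 can give, and the other 7 genes had p = 0.2 to 0.5.

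**Figure D2:**
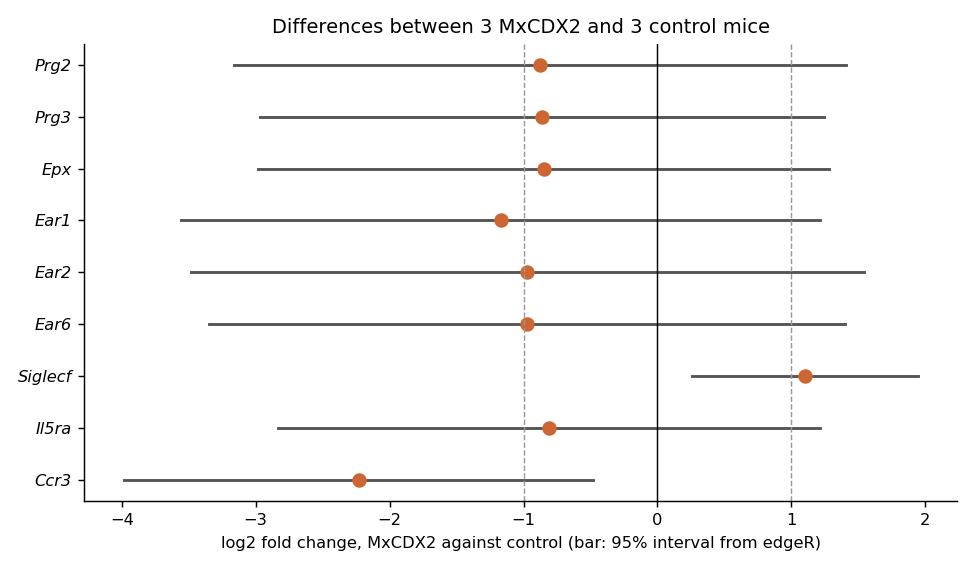
Log2 fold change of each gene in *MxCDX2* against control mice (points) with its 95% interval from edgeR's quasi-likelihood fit (bars), over 3 mice per group. Dashed lines mark a log2 fold change of -1 and 1. The intervals of 7 genes include 0, that of *Siglecf* lies above it (0.26 to 1.94) and that of *Ccr3* below it (-3.98 to -0.48).

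The spread between mice of the same group was wide for these genes. The SD of log2 normalized counts within groups was 1.63 for *Prg2*, 1.51 for *Epx* and 1.92 for *Ear2*, against a median of 0.27 over all tested genes. Only 1.39% of tested genes had a larger within-group SD than *Prg2*, 1.80% a larger one than *Epx* and 0.738% a larger one than *Ear2*. *Il5ra*, with an SD of 1.34, was exceeded by 2.75% of genes although its counts were low. The spread of *Ccr3* (1.11) was exceeded by 5.14% of genes and that of *Siglecf* (0.54) by 24.8%.

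**Figure D3:**
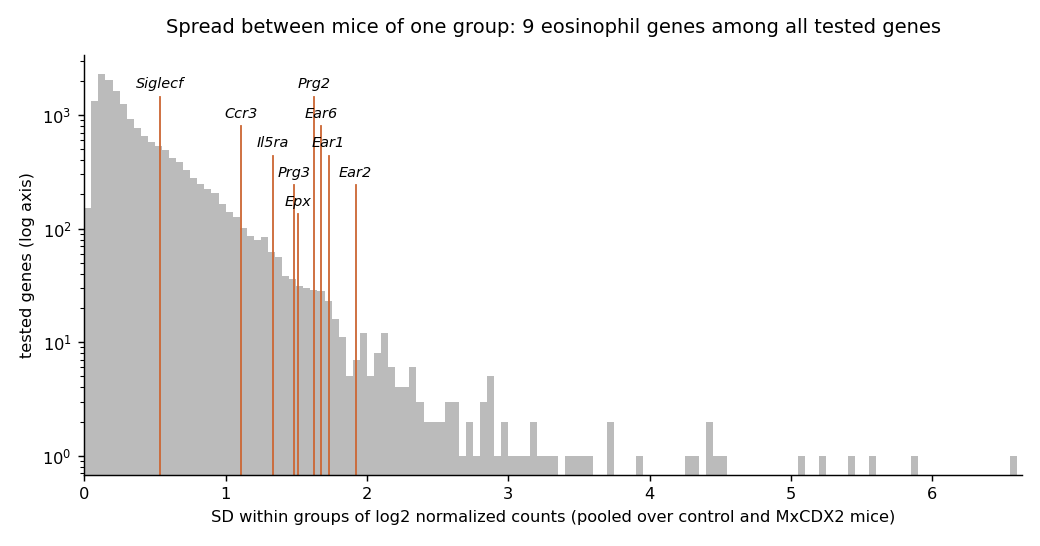
Histogram of the within-group SD of log2 normalized counts over all 15980 tested genes (grey, log axis for the number of genes), with the SD of each of the 9 eosinophil genes marked by a line. The lines of 7 genes lie between 1.34 (*Il5ra*) and 1.92 (*Ear2*), to the right of *Ccr3* (1.11) and *Siglecf* (0.54) and far from the median gene (0.27).

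The 7 genes other than *Siglecf* and *Ccr3* varied together. In 7 of 7, controls 1 and 2 and *MxCDX2* mouse 1 were the highest 3 mice, and in 7 of 7 *MxCDX2* mouse 2 was the lowest. The summed count of the 9 genes took 0.387%, 0.290% and 0.0863% of the reads on genes in control mice and 0.322%, 0.0276% and 0.1% in *MxCDX2* mice, of which *Prg2* alone took 0.255%, 0.177% and 0.0508% and 0.206%, 0.0155% and 0.0636%. Thus *MxCDX2* mouse 1 lay within the range of the control mice and the wild-type mouse close to *MxCDX2* mouse 3. Leaving out *MxCDX2* mouse 1 moved the log2 fold change of these 7 genes to between -2.06 (*Epx*) and -2.67 (*Ear1*), and leaving out *MxCDX2* mouse 2 moved it to between -0.33 (*Il5ra*) and -0.64 (*Ear1*). Without the wild-type mouse it lay between -1.15 (*Il5ra*) and -1.57 (*Ear1*). None passed the thresholds in any fit that left out 1 mouse.

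**Figure D4:**
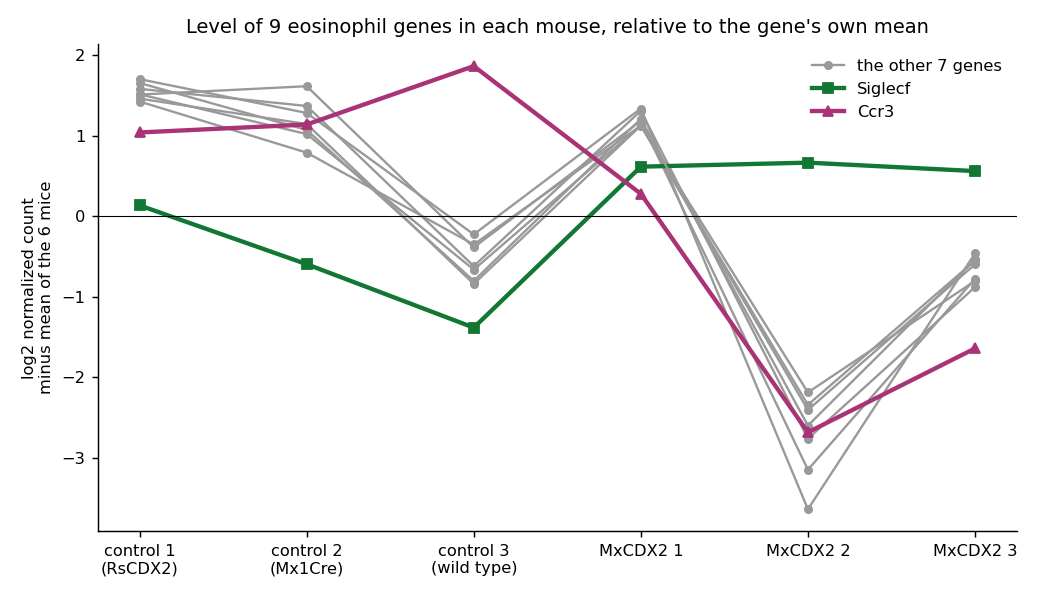
Log2 normalized count of each gene in each mouse minus the mean of that gene over the 6 mice. Lines join the values of 1 gene and do not mark an order of the mice. The 7 grey genes follow one course with *MxCDX2* mouse 2 lowest (-3.64 for *Ear2*), *Siglecf* is above its mean in all 3 *MxCDX2* mice and *Ccr3* is highest in the wild-type mouse (1.86).

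Ratios to *Epx* within a mouse show how closely the genes varied together. The log2 ratio of *Prg3* to *Epx* stayed between -2.65 and -2.34 over the 6 mice, and that of *Prg2* to *Epx* between 1.78 and 2.23, although *Epx* itself varied 13.9-fold. For *Il5ra* to *Epx* the range was 0.84 on the log2 scale. The range was 0.65 for *Ear6*, 1.28 for *Ear1* and 1.91 for *Ear2*. The ratio of *Ear6* to *Epx* was -1.45 to -1.35 in the control mice and *MxCDX2* mouse 1 (-1.39), and -1.99 and -1.90 in *MxCDX2* mice 2 and 3. The ratio of *Ear2* to *Epx* was -1.32 to -0.79 in 5 mice and -2.71 in *MxCDX2* mouse 2. The wide range of *Siglecf* to *Epx* (4.75) and of *Ccr3* to *Epx* (3.80) set these receptors apart from the other members, with *MxCDX2* mouse 2 at one end of the first and the wild-type mouse at one end of the second.
Of 6 ratios tested between members, those of *Siglecf* to *Ccr3* and of *Il5ra* to *Ccr3* did not overlap between the groups. The log2 ratio of *Siglecf* to *Ccr3* was 0.63, -0.20 and -1.72 in control mice and 1.87, 4.89 and 3.74 in *MxCDX2* mice. Its means of -0.43 ± 1.19 (SD, n = 3) and 3.50 ± 1.53 (SD, n = 3) differed by 3.93 (exact two-sided permutation test, p = 0.10, adjusted p = 0.3 over the 6 ratios). Every *MxCDX2* mouse was above all controls for *Siglecf* and below them for *Ccr3*, so this ratio could not overlap. Its p was thus fixed by the 2 single genes and adds no further evidence. The ratio of *Il5ra* to *Ccr3* was -2.03, -2.77 and -4.64 in control mice and -1.57, -1.95 and -1.585 in *MxCDX2* mice. Its means were -3.14 ± 1.34 (SD, n = 3) and -1.70 ± 0.22 (SD, n = 3) (exact two-sided permutation test, p = 0.10). Control 1 and *MxCDX2* mouse 2 lay close together, and the latter had only 15 reads of *Il5ra* and 58 of *Ccr3*. The other 4 ratios, *Prg2* to *Epx*, *Prg3* to *Prg2*, *Ear1* to *Ear2* and *Ear6* to *Ear2*, overlapped between the groups (exact permutation p = 0.5 to 0.8).

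**Figure D5:**
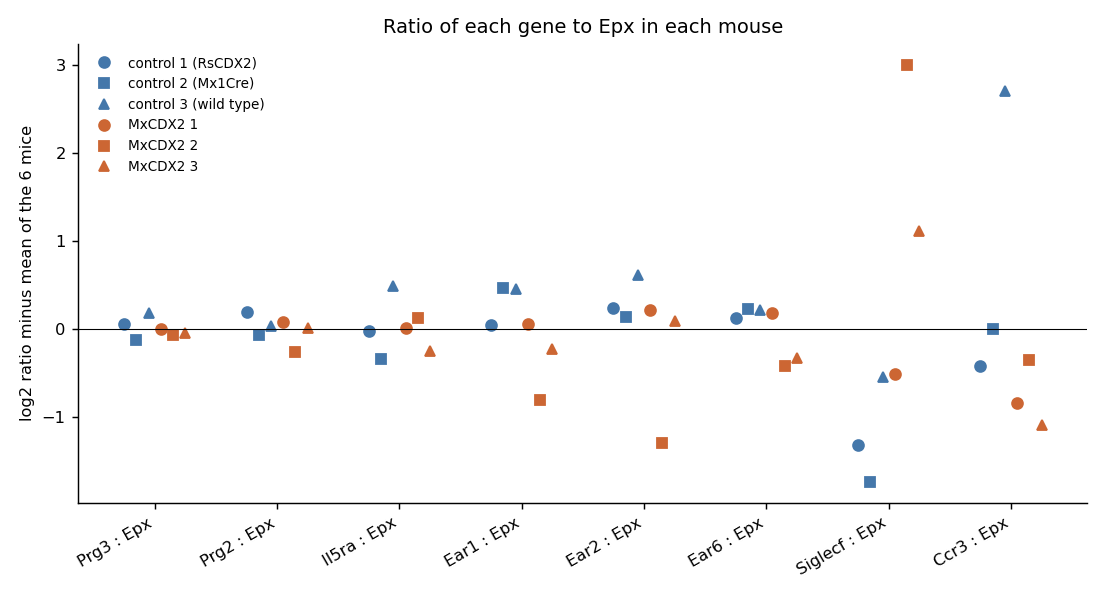
Log2 ratio of the normalized count of 8 genes to that of *Epx* in each mouse, minus the mean of that ratio over the 6 mice (blue, control mice; orange, *MxCDX2* mice). *Prg3*, *Prg2* and *Il5ra* stay within a range of 0.84, whereas *Siglecf* is high in *MxCDX2* mouse 2 and *Ccr3* in the wild-type mouse.

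In RPKM (reads per kilobase of exon, scaled to the TMM-adjusted library), *Prg2* was the most abundant of the 9 genes, with a mean level of 2041 in control mice and 1110 in *MxCDX2* mice. The ribonucleases followed, with 246 and 125 for *Ear2*, 213 and 94.8 for *Ear1* and 159 and 80.9 for *Ear6*, then *Epx* with 144.7 and 80.3 and *Prg3* with 72.6 and 39.9. The levels of neighbours from *Ear2* to *Epx* lay within the SD between mice. The receptors were lower, with levels of 6.51 and 1.39 for *Ccr3*, 5.99 and 12.8 for *Siglecf* and 0.735 and 0.419 for *Il5ra*, so *Siglecf* was level with *Ccr3* in control mice and above it in *MxCDX2* mice.

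Genes with the pattern most like that of a member were sought by Pearson's r of log2 normalized counts over the 6 mice, among the 11904 tested genes that averaged 100 normalized counts or more, and r is given as a description only, since 6 mice share their scaling and their groups. For *Epx* these were *Alox15*, *E130309D02Rik*, *Ddx3y*, *Cnot6* and *Phf6*. *Alox15*, the arachidonate lipoxygenase of mouse eosinophils and macrophages (r = 0.997), had 7378, 5246 and 1090 normalized counts in control mice and 6661, 333 and 1632 in *MxCDX2* mice, a 22.2-fold range, whereas the other 4 genes varied only 1.23-fold to 1.52-fold. For *Siglecf* they were *Lysmd4*, *Pcid2*, *Lzic*, *Atp8b4* and *Alg13*, with r of 0.993 to 0.997, and of these the putative lipid flippase gene *Atp8b4* varied most, 2.88-fold. For *Ccr3* they were *Bcas2*, *Akirin2*, *Eef1d*, *Ksr1* and *Usp24*, with r of 0.988 to 0.995 and ranges of at most 1.72-fold.

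Of the surface receptors of eosinophils beyond the members, 17 of 18 were tested, and 2 were higher and 5 lower in *MxCDX2* mice past the thresholds, with a median log2 fold change of 0.12. Beside the counts of this and the following lists stand the shares over all tested genes, 4.59% higher and 9.03% lower. The number of these receptors lower was 3 without control 1, without control 2, without *MxCDX2* mouse 2 and without *MxCDX2* mouse 3. The alarmin receptor gene *Il1rl1*, which encodes the interleukin-33 receptor, had 2180, 1786 and 1329 normalized counts in control mice and 632, 146 and 156 in *MxCDX2* mice (log2 fold change -2.50, adjusted p = 0.0304 from edgeR). The histamine receptor gene *Hrh4* fell by 2.74 on the log2 scale at low counts (adjusted p = 0.0492), the tetraspanin gene *Cd9* by 1.97, the adhesion receptor gene *Adgre4* by 1.97 and the formyl peptide receptor gene *Fpr1* by 2.14. *Il3ra*, the interleukin-3 receptor alpha chain, rose by 1.51 and the prostaglandin E receptor gene *Ptger2* by 2.08. Several of these receptors are known from other myeloid cells as well.
Interleukin-5 signals through the alpha chain together with the common beta chain, which is shared with interleukin-3 and GM-CSF. The beta chain gene *Csf2rb* had 14587, 11271 and 9892 normalized counts in control mice and 23013, 22860 and 22454 in *MxCDX2* mice. All 3 *MxCDX2* mice were above every control, with a log2 fold change of 0.93 (SE 0.16, adjusted p = 0.00984 from edgeR), below the threshold of 1. Of the 14 genes of interleukin-5 receptor signaling, all tested, 1 passed, the survival gene *Bcl2l1*, with 10094 to 11145 normalized counts in control mice and 1602 to 2773 in *MxCDX2* mice (log2 fold change -2.30, adjusted p = 0.00166 from edgeR). *Bcl2l1* is also a known gene of maturing erythroid cells, and all 8 erythroid markers were lower, with a summed count of 1728964 to 2064778 in control mice and 48904 to 191617 in *MxCDX2* mice. Without *MxCDX2* mouse 3, 5 of the 8 passed, and their part in this result was not tested. *Cish*, a feedback inhibitor induced by STAT5, had a log2 fold change of 1.07 and did not pass (adjusted p = 0.141). Without control 1 or without control 3, 1 gene of this list was higher.

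Among 13 transcription factor genes of the eosinophil lineage, 2 were higher and 2 lower with edgeR, and 2 higher and 4 lower with DESeq2. *Gata2*, named after its values were seen, was lower in all 3 *MxCDX2* mice than in any control. Its log2 fold change of -1.21 did not pass in edgeR (adjusted p = 0.0766) and passed in DESeq2 (adjusted p = 0.0179). *Gata1*, required for eosinophil and erythroid development, had 6061, 5676 and 8759 normalized counts in control mice and 1421, 382 and 750.4 in *MxCDX2* mice (log2 fold change -3.01, adjusted p = 0.00749 from edgeR), and its cofactor gene *Zfpm1* had a log2 fold change of -2.86. Over all mice the order for *Gata1* was not that of *Epx*, since the wild-type mouse was the highest for *Gata1*. *MxCDX2* mouse 1, at 21360 for *Epx*, had 1421 for *Gata1*, below every control. Within the *MxCDX2* group the order was the same for both genes, with mouse 1 highest and mouse 2 lowest. *Epx* had 21360, 1931 and 6675 normalized counts in these mice. A relation of *Gata1* to *Epx* was not tested. *Cebpa* rose by 1.72 and *Irf8*, a factor of the monocyte lineage, by 1.17, and the number of factors higher was 1 without control 2, without *MxCDX2* mouse 2 and without *MxCDX2* mouse 3. The erythroid markers given above moved with *Gata1* and *Zfpm1*, and their part was not tested.
Of 8 tested genes of lipid mediators and other effectors, 2 passed, both lower in *MxCDX2* mice. *Hpgds*, the hematopoietic prostaglandin D synthase, had 419, 447 and 1112 normalized counts in control mice and 98.5, 77.4 and 150.6 in *MxCDX2* mice (log2 fold change -2.60, adjusted p = 0.0123 from edgeR), with the wild-type mouse highest as for *Ccr3*. *Alox5*, the leukotriene-forming lipoxygenase of myeloid cells, had a log2 fold change of -1.0044 (adjusted p = 0.0404), close to the threshold. The number lower was 1 without control 1, without control 2, without *MxCDX2* mouse 1 and without *MxCDX2* mouse 3.

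In the families of the members, 0 of 5 tested ribonucleases of the RNase A superfamily and 0 of 3 heme peroxidases passed with edgeR. *Rnase4* had a log2 fold change of 1.14 (adjusted p = 0.0652 from edgeR), and DESeq2 called it higher. DESeq2 also called 1 ribonuclease lower that was not tested in edgeR, and without control 3 edgeR called 2 ribonucleases higher. *Mpo*, the neutrophil peroxidase and the relative of *Epx*, had 76497, 63396 and 14673 normalized counts in control mice and 65632, 68472 and 57529 in *MxCDX2* mice, so unlike *Epx* it was low in the wild-type mouse alone. Among 7 tested Siglec genes outside the members, 1 was higher and 3 lower. The CD33-related *Siglece*, a receptor of neutrophils and other myeloid cells, had 3474 to 3909 normalized counts in control mice and 842 to 1084 in *MxCDX2* mice (log2 fold change -1.95, adjusted p = 0.00101 from edgeR), opposite in sign to *Siglecf*. The neutrophil later granule markers were lower in the same mice, 7 of 9 past the thresholds, with a summed count of 973679 to 1733174 in control mice and 456445 to 615321 in *MxCDX2* mice. Their part in the differences of *Siglece*, *Fpr1* and *Alox5* was not tested. *Cd22* of B cells and *Siglech* of plasmacytoid dendritic cells had log2 fold changes of -1.30 and -2.20, and *Mag*, the myelin-associated Siglec, had one of 2.17. Markers of the cells of *Cd22* moved with it, since 4 of 6 B cell markers were lower, with a summed count of 16903 to 42279 in control mice and 3551 to 11582 in *MxCDX2* mice, and their part was not tested. This number of B cell markers was 0 without control 2 or without *MxCDX2* mouse 3, and 1 without control 1 or without *MxCDX2* mouse 2.
Most ligands and growth factors were read at low levels or not at all, apart from *Ccl5*, a chemokine of T and other cells that also binds CCR3, with 974, 925 and 3411 normalized counts in control mice and 2814, 866 and 1005 in *MxCDX2* mice (adjusted p = 0.873 from edgeR). *Ccl7*, another ligand, had 1.06 to 22.6 normalized counts and did not pass (adjusted p = 0.668). *Ccl24*, an eotaxin and ligand of CCR3, had 7.94 to 8.95 normalized counts in control mice and 35.0 to 42.7 in *MxCDX2* mice (log2 fold change 2.23, adjusted p = 0.00489 from edgeR), the 1 of 5 tested genes that passed. Without control 3, 1 other gene of the list was lower. *Ccl11*, another eotaxin, and *Il3* had 0 reads in every mouse and *Il5* at most 2, and these 3 were named after their values were seen. Together the 8 lists held 93 genes in the files, of which 70 were tested, 6 were higher and 13 lower. Over all tested genes 4.59% were higher and 9.03% lower. The lists were chosen with earlier results known, and no count was tested against these shares.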

How the data were processed

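Bone marrow mRNA of 6 mice was sequenced as stranded libraries. The authors aligned reads with STAR (version 2.5) to GRCm38. HTSeq (version 0.6.1) then gave a number of reads for each gene, and these raw counts are what the authors deposited, not normalized. The methods name Ensembl release 90. Genes were named through GENCODE M21, and groups came from the sample labels, whose mice are littermates.

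The fit used edgeR 4.0.16 in R 4.3.3 (TMM, filterByExpr, glmQLFit and glmQLFTest), and Benjamini-Hochberg adjustment over 15980 genes. The thresholds are those of the methods, which used DESeq2. DESeq2 1.42.0, other scalings, filters and thresholds, and leaving out each mouse were alternatives. The test was tested on simulated data. Standard errors came from the F statistic. Tables were made with Python 3.11.15 and pandas 2.3.3. Profiles and within-group SDs used a pseudocount of 0.5, and log2 ratios used none. The depth leaves the spread between mice, not counting, as the limit for all but the low genes.

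The 9 genes and the other lists were chosen with earlier results of these data known. Named genes were the 9, the 2 highest and 2 lowest log2 fold changes of each other list, genes past the thresholds in the eosinophil lists, the 5 genes most like *Epx*, *Ccr3* and *Siglecf*, and *Cdx2*. Not every gene the rule gives is named, and those named after their values were seen are said to be. Protein sequences were not used here.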

Additional observations from a re-analysis of the deposited data

How the results depend on the processing

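Of 129 recomputed fold changes of the 9 genes, 124 kept their direction and their side of the thresholds, 5 passed in addition and 0 reversed. The number of members higher was 0, and 1 with total counts only and 1 with DESeq2 (*Siglecf* in each), and between 0 and 1 when a mouse was left out (1 without control 1). The number lower was 0, and 1 with DESeq2 (*Ccr3*), and between 0 and 1 when a mouse was left out (1 without *MxCDX2* mouse 1). The 8 other lists hold eosinophil genes and families of the members. Their 6 genes higher became 11 with no threshold on the fold change and 5 to 10 when a mouse was left out (10 without control 3). Their 13 lower became 8 at an adjusted p below 0.01 and 9 to 15 when a mouse was left out. The cause was not tested, beyond what the alternatives change by construction. Of 448 recomputed counts by list and direction, 384 stayed within 1.5 times and 64 moved. Over all genes, 2177 passed with edgeR and 2903 with DESeq2. Total counts only moved the median log2 fold change of all genes by 0.116, and the share of higher calls was 41.5% in place of 33.7%. No paired analysis was possible because the labels number the *MxCDX2* mice but give the control mice no number of their own. With 3 mice per group and 3 control genotypes, genotype and mouse cannot be told apart among the controls.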

Other observations

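Another ribonuclease of the same chromosome 14 region, *Ear10*, was present in some mice and nearly absent in others without regard to the groups. It had 823, 1 and 1 reads in control mice and 797, 0 and 243 in *MxCDX2* mice. The pseudogene *Ear-ps2* had 1429, 1 and 6 reads in control mice and 1446, 0 and 513 in *MxCDX2* mice, and *Ear-ps10* had 62, 0 and 0 and 55, 0 and 25. *Ear10* was nearly absent in control 2, control 3 and *MxCDX2* mouse 2. *Ear1*, *Ear2* and *Ear6* had 9742, 8975 and 8507 normalized counts in control 2, among their higher levels. They were low in control 3, at 2432, 3155 and 2142, and in *MxCDX2* mouse 2, at 359, 296 and 485. A relation of *Ear10* to these relatives was not tested. Of the 50-base words of *Ear10*, 60.1% occur in no other gene. *Ear10*, *Ear-ps2* and *Ear-ps10* were named after their values were seen.

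Other genes that followed *Epx* were sought after the values were seen, with limits looser than the values of the 7 members, among the 14475 genes that averaged 20 normalized counts or more and had a count in every mouse. With r of at least 0.95 over the 6 mice and a range of at least 5-fold, 18 genes were found, of which 7 were members and 11 were not. Beside *Alox15* they included *Adora3*, which encodes the adenosine A3 receptor (399.97, 276 and 112 normalized counts in control mice and 338, 47.0 and 95.8 in *MxCDX2* mice), *Slc30a2*, which encodes a zinc transporter (69.0, 77.5 and 27.4, and 47.7, 3.92 and 14.8), the microtubule-associated protein gene *Mapt* (39.6, 47.7 and 12.8, and 40.3, 3.92 and 12.2) and the metalloprotease gene *Adamdec1*. Another 2 were immunoglobulin variable segments, *Ighv1-81* (r = 0.988), with 5614, 6752 and 2188 normalized counts in control mice and 5843, 1121 and 2444 in *MxCDX2* mice, and *Igkv8-28* (r = 0.954), with 779.5, 431 and 317 and 567, 135 and 325. The summed count of 6 B cell markers was 29277, 42279 and 16903 in control mice and 11582, 3551 and 8131 in *MxCDX2* mice, and the part of B cells in these patterns was not tested. The other 4 were *Ear-ps9*, *Ctcflos*, *Gm12678* and, last, *Gm42418*. *Gm42418*, a noncoding gene on chromosome 17, took 0.397%, 0.439% and 0.215% of the reads on genes in control mice and 0.560%, 0.112% and 0.163% in *MxCDX2* mice, and its part in the spread of the eosinophil genes was not tested.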
